A study of Homo sapiens with 36 samples.

Results

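The SLC25 family of mitochondrial carriers was followed through 36 expression arrays of HK-2, a human cell line immortalized from the epithelium of the renal proximal tubule. Members were all genes with an SLC25A number as their symbol on the array. The pattern found 50 of the 19775 genes represented. Of these, 45 encode carriers, and 5 are antisense RNAs or a pseudogene that encode none and are described apart. Where a gene had several probe sets, the set with the highest average across the arrays stood for it.

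The cells were treated for 24 h or 48 h with a compound labelled Aa, or for 24 h or 72 h with a compound labelled Ota, at a high dose, at a low dose or with vehicle alone. This made 12 groups of 3 biological replicates, and vehicle controls were run separately for every compound at every time. The labels neither spell out the compounds nor give concentrations, so doses are not matched between Aa and Ota. All groups were grown in a supplemented serum-free medium and treated near confluence. The cells are 1 immortalized line without the rest of a kidney, and whole cultures were lysed, so fewer cells of a kind and less RNA per cell cannot be told apart.

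Mitochondrial carriers are small proteins of the inner mitochondrial membrane that exchange metabolites between the cytosol and the matrix. They import ADP and phosphate for ATP synthesis and export ATP, pass citrate, malate, aspartate and glutamate between the compartments, and supply the matrix with nucleotides, cofactors, acylcarnitines, amino acids and iron. Proximal tubule cells depend on mitochondrial ATP for reabsorption. The carriers themselves are encoded in the nucleus, made in the cytosol and passed to the inner membrane by translocases of both mitochondrial membranes.

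A probe set was taken as measured on an array where its log2 level exceeded 4. Values at or under 4 were given no order in the text, though the fits used them as deposited. By that line, 27 carriers were measured on all 36 arrays. They were SLC25A1, SLC25A3, SLC25A4, SLC25A5, SLC25A13, SLC25A14, SLC25A16, SLC25A17, SLC25A22, SLC25A23, SLC25A24, SLC25A25, SLC25A26, SLC25A28, SLC25A29, SLC25A30, SLC25A32, SLC25A33, SLC25A36, SLC25A37, SLC25A38, SLC25A39, SLC25A40, SLC25A42, SLC25A43, SLC25A44 and SLC25A46. A further 10 were measured on some arrays: SLC25A10, SLC25A11, SLC25A12, SLC25A15, SLC25A20, SLC25A34, SLC25A35, SLC25A45, SLC25A51 and SLC25A53. The remaining 8 were at or under 4 on every array: SLC25A2, SLC25A18, SLC25A21, SLC25A27, SLC25A31, SLC25A41, SLC25A47 and SLC25A48. A gene was tested for a compound if it exceeded 4 on at least 3 of that compound's arrays. That left 36 carriers for Aa and 37 for Ota, the additional one being SLC25A53. SLC25A6 and SLC25A52 were not analysed here.

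Arrays of the high Ota dose stood apart from the rest. Their median over all tested genes was 7.64 ± 0.16 at 24 h, against 8.28 ± 0.06 in the controls, and 7.95 ± 0.05 at 72 h, against 8.28 ± 0.02 (SD, n = 3 each). Carrier calls of that dose against control are therefore also given with every array shifted to the same median, where this changed a call. For its other comparisons the counts of called carriers are given so. Of 12 proximal tubule markers with a probe set, SLC3A1, SLC4A4, PAX8 and CDH6 exceeded 4 on all 36 arrays, GGT1 did on 3, and ANPEP, AQP1, CUBN, LRP2, SLC22A6, SLC34A1 and SLC5A2 did on none. The summed level of that list lay between 11.14 and 11.80 (log2) on high dose Ota arrays at 72 h, against 13.26 to 13.39 in the controls, and between 11.32 and 11.96 with high dose Aa at 48 h, against 12.88 to 13.57. Markers of other cells moved too. The summed leukocyte list, 4 genes, lay between 6.86 and 7.30 with high dose Ota at 24 h, against 4.48 to 4.50 in controls. FCER1G exceeded 4 on 11 of all arrays and ITGAM on 3, while PTPRC and CD14 were at or under 4 on every array. Of 5 striated muscle markers, ACTA1 alone exceeded 4, on the 3 arrays of high dose Aa at 48 h. The fibroblast markers COL1A1, DCN and LUM, the distal nephron markers SCNN1A and CLDN16 and the endothelial marker ESAM exceeded 4 on all arrays, and the distal nephron marker SLC12A1 on 5. COL1A2, COL3A1, PDGFRB, THY1, AQP2, CALB1, SLC12A3, CDH5, KDR, PECAM1 and VWF were at or under 4 on every array. The part of any other cell type in the carrier results was not tested.

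To determine how the carriers responded to each compound, the levels at each dose were compared with the controls of the same compound and time in limma, and a gene was called at a Benjamini-Hochberg adjusted p under 0.05. With high dose Aa, 15 carriers were called at 24 h, 9 higher and 6 lower, and 19 at 48 h, 8 higher and 11 lower. The background was 51.3% of all tested genes called at 24 h and 66% at 48 h, against 41.7% and 52.8% of the tested carriers. By direction, 27.4% of all genes were higher and 24% lower at 24 h, and 30.9% and 35.1% at 48 h. High dose Ota called 23 carriers at 24 h, 8 higher and 15 lower, beside 64% of all tested genes, and 26 at 72 h, 10 higher and 16 lower, beside 63.4%. Those counts were 62.2% and 70.3% of the tested carriers. Some calls rest on values at or under 4. With such values set to 4, the fall of SLC25A35 with high dose Ota at 72 h was not called. Over all genes 21.6% were higher and 42.4% lower at 24 h, and 26.3% and 37% at 72 h. As deposited, the shares of carriers called lay below the background with high dose Aa. They lay close to it with high dose Ota at 24 h, and somewhat above it at 72 h. With equal array medians, 25 of the 37 carriers were called with high dose Ota at 72 h. Of all 11029 tested genes, 4370 were then higher and 3083 lower, so the carriers no longer lay above the background. With the replicate number as a block, which pairs the Aa cultures, 66.7% of carriers and 63.2% of all genes were called with high dose Aa at 24 h, and 61.1% and 74.4% at 48 h, so at 24 h the carriers no longer lay below the background.

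At low dose, Aa called 9 carriers at 24 h, 4 higher and 5 lower, beside 25.1% of all tested genes (11.6% higher and 13.5% lower), and 13 at 48 h, 6 higher and 7 lower, beside 37.9% (18.8% and 19.1%). Low dose Ota called 4 carriers at 24 h, all lower, beside 14.7% of all tested genes (10% lower and 4.66% higher), and 11 had an unadjusted p under 0.05. The replicate block added SLC25A24 there as higher, by 0.37 (adjusted p = 0.0483), and equal medians gave 3 higher (SLC25A13, SLC25A24 and SLC25A37) and 2 lower. Of all 11029 tested genes, 947 were higher and 752 lower with equal medians. At 72 h low dose Ota called 6, all higher, beside 17.1% of all tested genes (9.79% higher and 7.28% lower). With values under 4 set to 4, SLC25A34 was not called with low dose Aa at 24 h. Nor were SLC25A45 and SLC25A53 with low dose Ota at 72 h, where SLC25A3 was then called lower. Without single arrays the low dose counts were 2 to 5 for Ota at 24 h (2 without control replicate 1, low dose replicate 1 or low dose replicate 2) and 1 to 4 for Ota at 72 h (1 without low dose replicate 1, 2 without control replicate 3, 3 without control replicate 1, low dose replicate 2 or low dose replicate 3). For low dose Aa at 48 h the count was 8 without low dose replicate 3. The replicate numbers of Aa cultures paired across groups, and with the number as a block the counts were 24 for the high dose at 24 h, 15 for the low dose at 24 h (beside 39.4% of all genes) and 20 for the low dose at 48 h (beside 53.2%). That block ended no Aa call. It added SLC25A1, SLC25A5, SLC25A10, SLC25A17, SLC25A22, SLC25A23 and SLC25A32 as lower and SLC25A44 and SLC25A45 as higher with high dose Aa at 24 h, and SLC25A10, SLC25A23 and SLC25A46 as lower at 48 h. With low dose Aa it added SLC25A1, SLC25A10 and SLC25A23 as lower and SLC25A14, SLC25A28 and SLC25A36 as higher at 24 h, and SLC25A10 and SLC25A23 as lower and SLC25A14, SLC25A16, SLC25A29, SLC25A36 and SLC25A51 as higher at 48 h.

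With the medians of the arrays made equal, the carriers called with high dose Ota divided into 19 higher and 10 lower at 24 h and 13 higher and 12 lower at 72 h. Of all 11029 tested genes, 5193 were then higher and 2943 lower at 24 h, and 4370 and 3083 at 72 h, so the carriers shifted with all genes. Equal medians ended the falls of SLC25A10, SLC25A16, SLC25A26, SLC25A30 and SLC25A43 at 24 h and of SLC25A12, SLC25A26, SLC25A30 and SLC25A35 at 72 h. They added as higher SLC25A3, SLC25A5, SLC25A13, SLC25A17, SLC25A22, SLC25A24, SLC25A28, SLC25A32, SLC25A45, SLC25A46 and SLC25A53 at 24 h, and SLC25A22, SLC25A37 and SLC25A46 at 72 h. Quantile normalization gave 12 higher and 14 lower at 24 h, beside 3284 higher and 3998 lower of all 11029 tested genes. The median change of all tested genes was -0.26 at 24 h and -0.12 at 72 h as deposited, and 0.38 and 0.20 with equal array medians. The directions of small changes with high dose Ota are thus relative to the scaling.

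**Figure D1:**
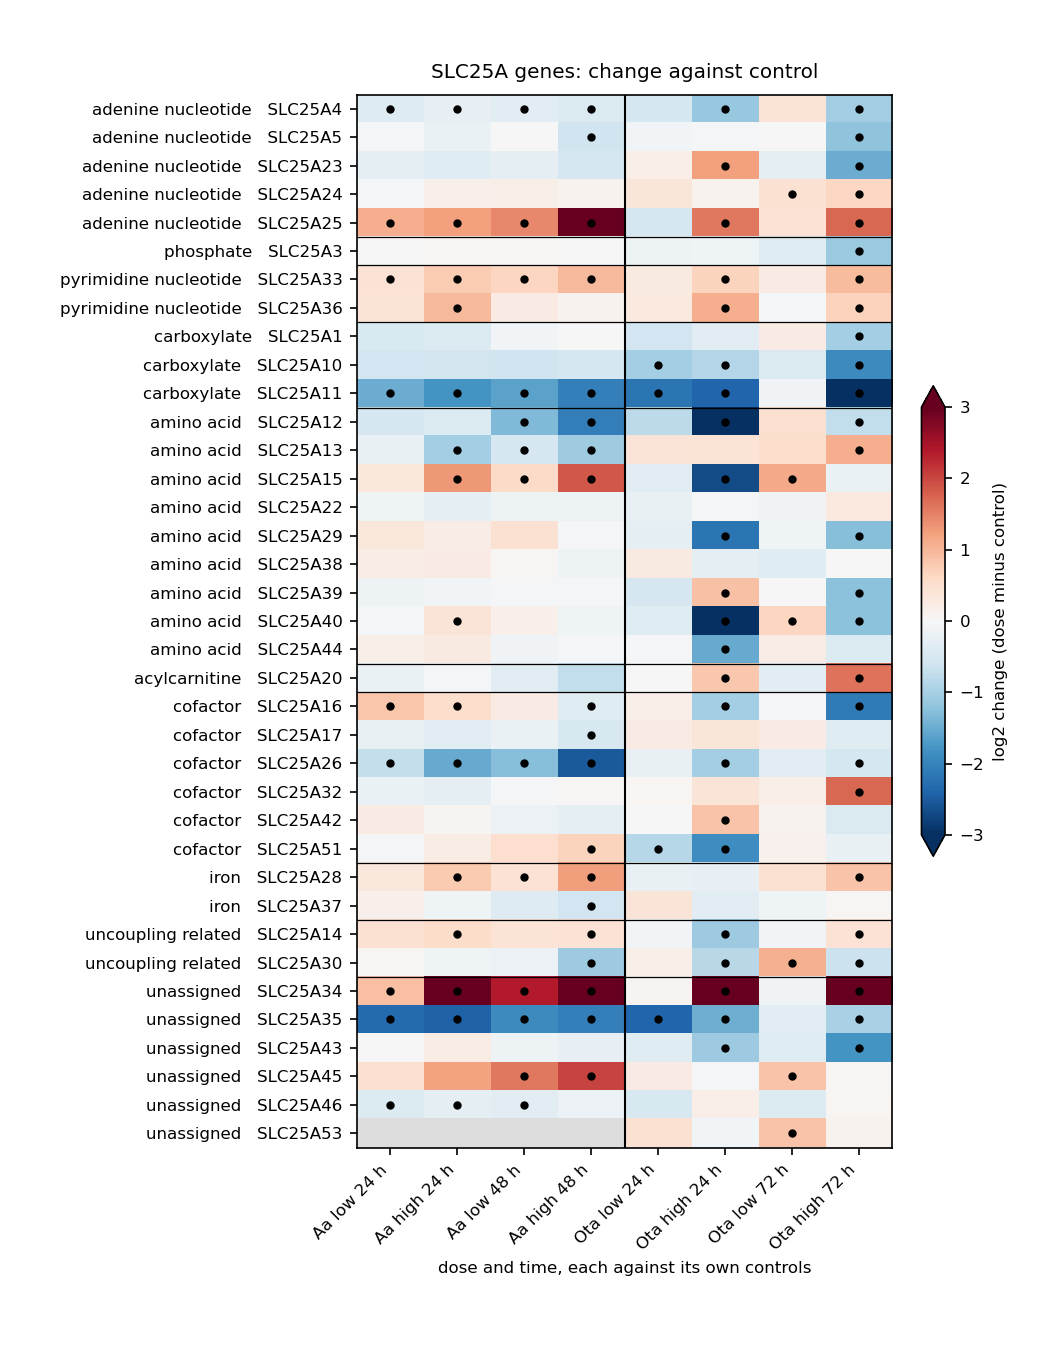
Log2 change of each tested carrier against the controls of the same compound and time, for 8 combinations of compound, dose and time in columns and genes in rows grouped by cargo. Red is higher and blue lower than control, colours are capped at 3, dots mark adjusted p under 0.05 and grey marks a gene not tested. SLC25A34 and SLC25A25 are red and SLC25A11 blue in every high dose column.

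**Figure D2:**
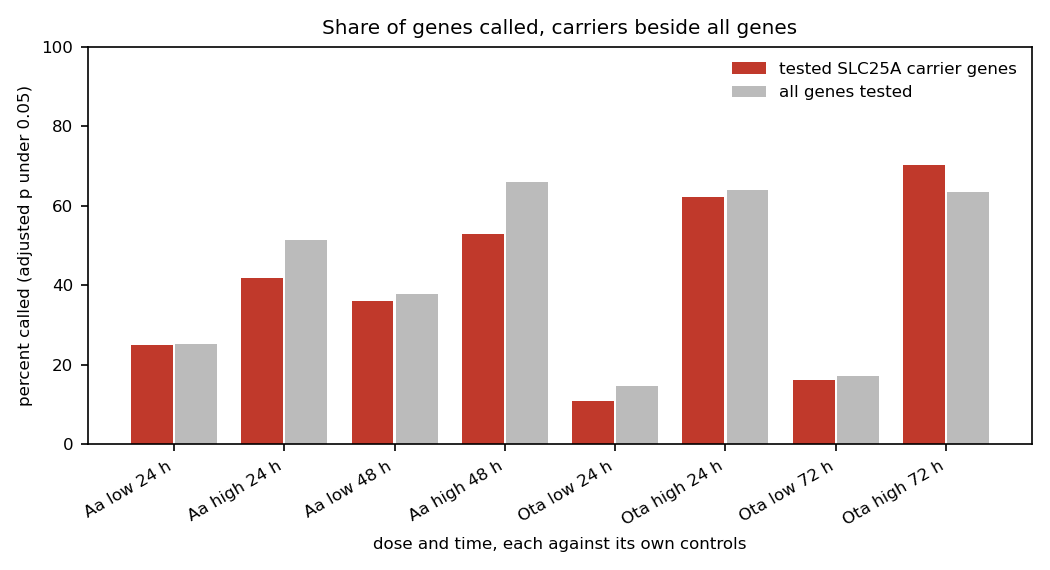
Percent of tested carriers (36 with Aa, 37 with Ota) and of all tested genes called at adjusted p under 0.05, for each dose and time against its own controls. The carrier bar is lower than that of all genes for high dose Aa, at 41.7% and 51.3% at 24 h and 52.8% and 66% at 48 h, and higher for high dose Ota at 72 h, at 70.3% and 63.4%. The difference for Aa at 24 h was not kept with the replicate block, nor that for Ota at 72 h with equal array medians.

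The carrier with the largest rise was SLC25A34, whose cargo is not firmly assigned and which is related in sequence to the yeast oxaloacetate carrier. Its levels were 7.54, 7.39 and 7.35 with high dose Aa at 24 h, against 2.31, 2.30 and 2.30 in the controls. At 48 h they were 7.54, 7.10 and 6.86 with the high dose, against 2.41, 2.59 and 2.30. All high dose arrays lay far above the line of 4 and all control arrays below it. The rise was at least 10.7-fold at 24 h (adjusted p = 8.1e-09) and at least 8.98-fold at 48 h (adjusted p = 5.2e-09). SLC25A34 exceeded 4 on 9 Aa and 6 Ota arrays, all of them treated. It was thus tested only through groups where it was high. Its adjusted p-values rest on control values under the line, so the levels and bounds describe the rise.

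Low dose Aa brought the same gene to 4.48, 5.46 and 4.47 at 48 h, at least 1.75-fold above the controls (adjusted p = 1.93e-05). At 24 h it read 3.84, 2.64 and 3.12, all at or under 4, so no fold is given although its call passed (adjusted p = 0.0296). That call was lost in 5 of 6 fits without an array (up to 0.156 without low dose replicate 1). The high dose exceeded the low dose at both times, by at least 10.7-fold at 24 h and by 2.36 ± 0.28 (log2, SE) at 48 h. SLC25A34 thus stepped up with dose under Aa.

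High dose Ota gave 5.60, 5.96 and 6.37 for SLC25A34 at 24 h, against 2.44, 2.30 and 2.31 in the controls. At 72 h the values were 6.26, 7.28 and 5.85, against 2.65, 2.30 and 2.31. These were increases, of at least 3.93-fold (adjusted p = 1.81e-08) and at least 5.51-fold (adjusted p = 7.15e-09). Low dose Ota left it at 2.42 ± 0.20 at 24 h and 2.30 ± 0.01 at 72 h (SD, n = 3 each), under the line of 4 on every array. A second probe set of the gene rose with all 4 high doses, by 2.70, 2.51, 2.32 and 1.54 (log2).

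**Figure D3:**
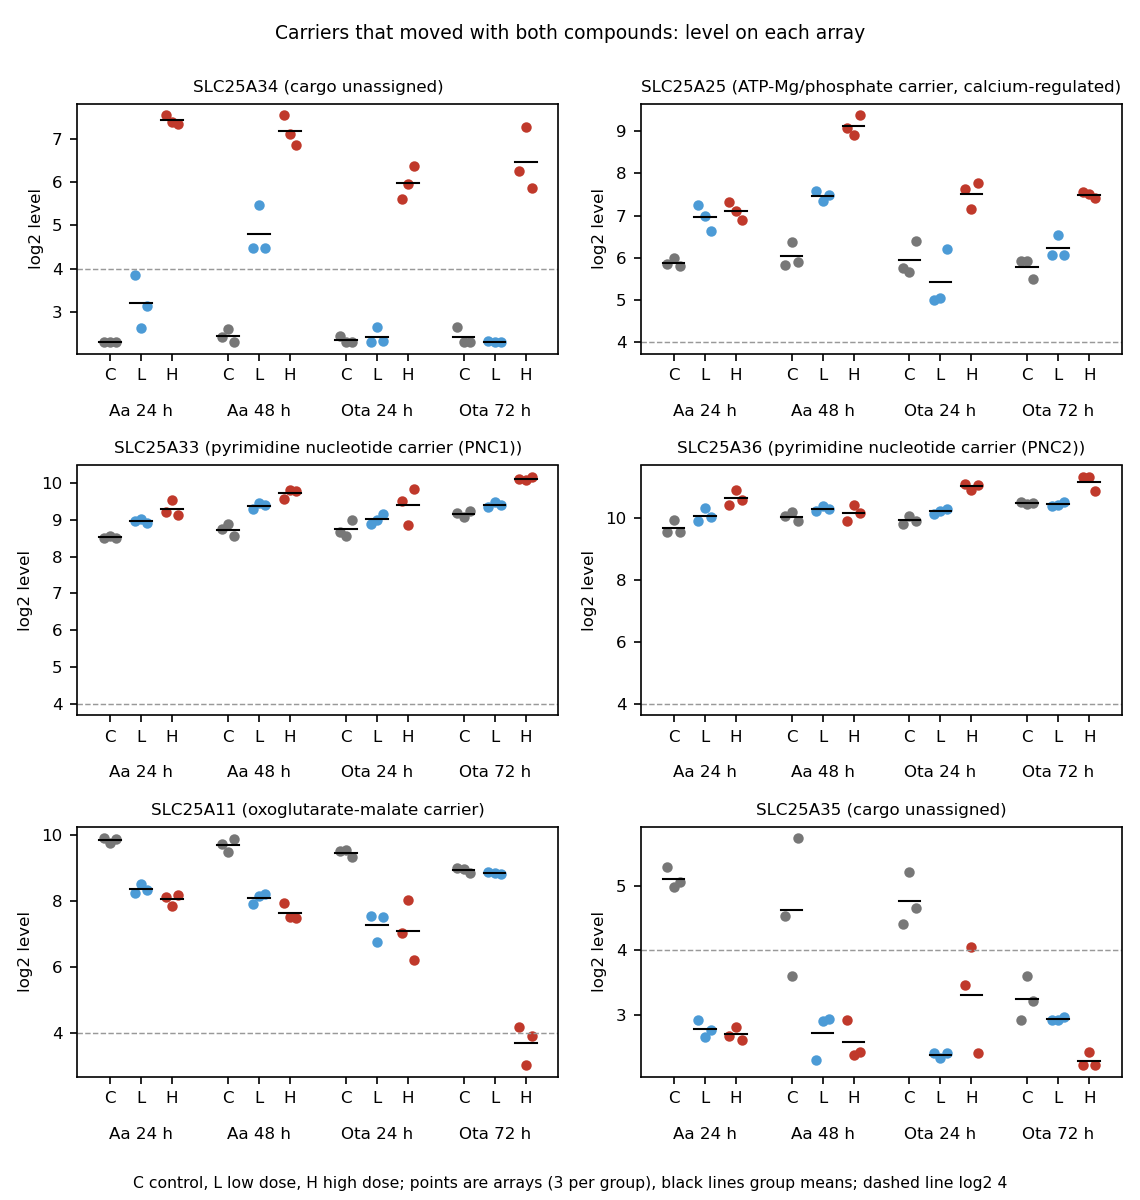
Log2 level on each of 36 arrays for 6 carriers, with control (C), low dose (L) and high dose (H) groups along each x axis for each compound and time, 3 points per group, black group means and a dashed line at 4. SLC25A34 crosses the line in every high dose group and in no control group, while SLC25A11 drops to the line with high dose Ota at 72 h.

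Among the adenine nucleotide carriers, 5 of 7 were tested, the exceptions being the testis ADP/ATP carrier SLC25A31 and the ATP-Mg/phosphate carrier SLC25A41. SLC25A25 moved most. It is a calcium-regulated carrier that exchanges ATP-Mg for phosphate and so sets the adenine nucleotide content of the matrix. With high dose Aa it read 7.33, 7.10 and 6.89 at 24 h, against 5.85, 5.99 and 5.81 in the controls. At 48 h it read 9.07, 8.91 and 9.37, against 5.83, 6.38 and 5.90. No high dose array overlapped a control array at either time. The changes were 1.22 ± 0.18 (log2, SE; adjusted p = 5.07e-05) and 3.08 ± 0.18 (adjusted p = 4.68e-09), the second an 8.46-fold rise.

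Low dose Aa raised SLC25A25 by 1.08 ± 0.18 at 24 h (adjusted p = 0.000559) and by 1.44 ± 0.18 at 48 h (adjusted p = 3.21e-05). High dose Ota gave 7.63, 7.15 and 7.77 at 24 h, against 5.75, 5.67 and 6.40 in the controls, and 7.55, 7.52 and 7.42 at 72 h, against 5.93, 5.92 and 5.50. The rises were 1.58 ± 0.29 (adjusted p = 0.000171) and 1.71 ± 0.29 (adjusted p = 8.08e-05). With low dose Ota it was not called, with means of 5.42 ± 0.68 at 24 h, against 5.94 ± 0.40, and 6.22 ± 0.27 at 72 h, against 5.78 ± 0.25 (SD, n = 3 each).

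Its paralogue SLC25A23 moved in opposite directions at the earlier and later Ota times. It read 9.23, 9.25 and 8.85 with high dose Ota at 24 h, against 8.20, 7.42 and 8.03 in controls, a rise of 1.23 ± 0.23 (adjusted p = 0.000232). At 72 h it read 6.65, 7.03 and 6.18, against 8.14, 8.27 and 7.94, a change of -1.5 ± 0.23 on the log2 scale (adjusted p = 3.55e-05). The arrays of the groups did not overlap at either time. The other paralogue, SLC25A24, rose with high dose Ota at 72 h to 11.39 ± 0.13, against 10.77 ± 0.03 (SD, n = 3 each).

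The ADP/ATP carriers, which exchange matrix ATP for cytosolic ADP, did not follow SLC25A25. SLC25A5 is the form of dividing and many other cells. It read 12.84, 12.98 and 12.88 with high dose Ota at 72 h, against 14.18, 14.15 and 14.02 in controls, and fell by 1.21 on the log2 scale (SE 0.10, adjusted p = 4.87e-08). High dose Aa lowered it at 48 h to 13.55, 13.54 and 13.61, against 14.13, 14.19 and 14.18, a change of -0.60 ± 0.08 (adjusted p = 1.24e-05). At 24 h its change with high dose Aa, -0.19, was not called (adjusted p = 0.0657), but passed with the replicate block (0.0245) and with equal array medians. With high dose Ota at 24 h it was 14.08 ± 0.08, against 14.15 ± 0.08, and equal array medians turned that difference to 0.57.

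SLC25A4, the form best known from heart and muscle, was lower on its representative probe set with both compounds. Its changes were -0.25 ± 0.10 and -0.43 ± 0.10 with high dose Aa at 24 h and 48 h, and -1.13 ± 0.19 and -1.05 ± 0.19 with high dose Ota at 24 h and 72 h (adjusted p = 0.0402, 0.00118, 8.33e-05 and 0.000178). Low dose Aa gave -0.38 ± 0.10 and -0.31 ± 0.10 (adjusted p = 0.00966 and 0.0219), the later call being lost without control replicate 1 or 3 or low dose replicate 3 (up to 0.0965). A second probe set of SLC25A4 changed the other way with all 4 high doses, by 1.03, 1.46, 0.84 and 1.89. The call with high dose Aa at 24 h was lost without control replicate 2 (adjusted p = 0.167) and in 4 of the other 5 fits that left out an array.

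SLC25A3 carries phosphate into the matrix for ATP synthesis. Its representative probe set read 12.54, 13.00 and 12.68 with high dose Ota at 72 h, against 13.89, 13.88 and 13.77, below every control. That was a change of -1.11 ± 0.13 (adjusted p = 1.6e-06). With high dose Aa it differed from control by 0.05 ± 0.08 at 24 h and 0.01 ± 0.08 at 48 h, neither called. The gene's other tested probe set gave the opposite picture, with rises of 3.25, 3.5, 5.03 and 3.99 at high dose Aa 24 h and 48 h and high dose Ota 24 h and 72 h. Which transcripts each set reads is not given in the sources used here, so no direction is drawn for SLC25A3 as a gene.

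**Figure D4:**
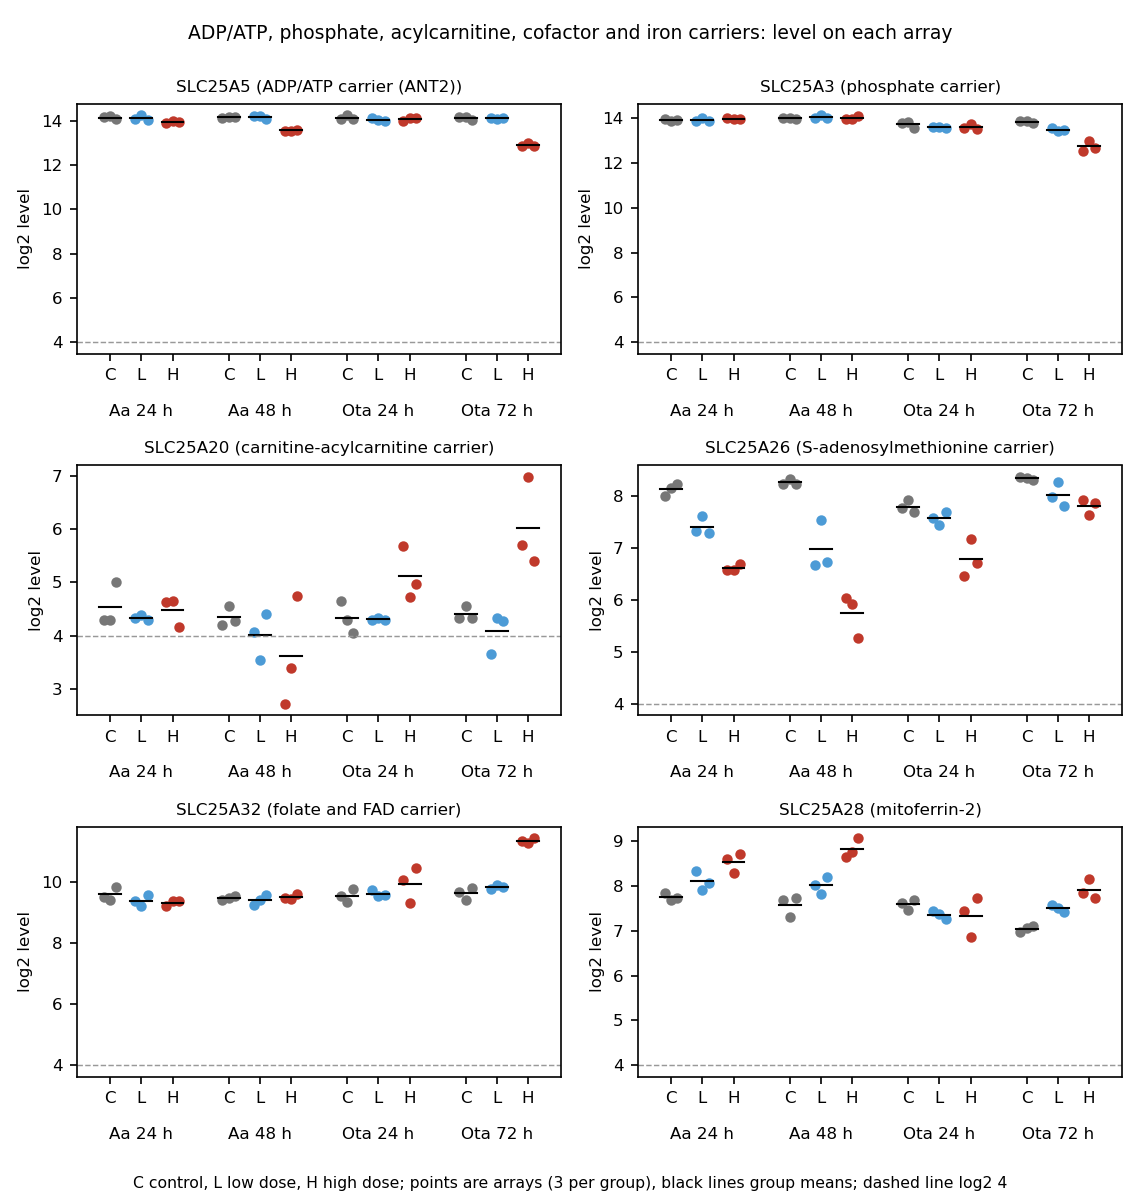
Log2 level on each of 36 arrays for the ADP/ATP carrier SLC25A5, the phosphate carrier SLC25A3, the acylcarnitine carrier SLC25A20, the cofactor carriers SLC25A26 and SLC25A32 and the iron carrier SLC25A28, with groups, points, lines and axes as in the panels of SLC25A34. SLC25A5 and SLC25A3 are lowest, and SLC25A20 and SLC25A32 highest, with high dose Ota at 72 h, and SLC25A26 is lowest with high dose Aa at 48 h.

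Both carriers that bring pyrimidine nucleotides into the matrix for mitochondrial DNA and RNA synthesis were tested, and neither fell in any dose comparison. SLC25A33 read 9.20, 9.53 and 9.13 with high dose Aa at 24 h, against 8.51, 8.55 and 8.51 in the controls, and 9.57, 9.80 and 9.77 at 48 h, against 8.74, 8.89 and 8.56. The changes were 0.76 ± 0.12 (adjusted p = 7.07e-05) and 0.98 ± 0.12 (adjusted p = 3.18e-06). Low dose Aa raised it by 0.44 ± 0.12 and 0.65 ± 0.12 (adjusted p = 0.0122 and 0.000577).

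High dose Ota gave 9.5, 8.86 and 9.85 for SLC25A33 at 24 h, against 8.67, 8.56 and 8.98, with 1 treated array inside the control range. At 72 h it gave 10.10, 10.08 and 10.17, against 9.19, 9.07 and 9.23, with no overlap. The changes were 0.66 ± 0.19 (adjusted p = 0.00627) and 0.95 ± 0.19 (adjusted p = 0.000402). SLC25A36 was higher with high dose Aa at 24 h, at 10.43, 10.92 and 10.59, against 9.54, 9.94 and 9.55, a change of 0.97 ± 0.17 (adjusted p = 0.000173). It was 10.16 ± 0.25 at 48 h, against 10.05 ± 0.15 (SD, n = 3 each), a difference that was not called.

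With high dose Ota, SLC25A36 rose at 24 h to 11.11, 10.91 and 11.08, against 9.82, 10.07 and 9.92, by 1.10 ± 0.13 (adjusted p = 2.5e-06). It rose at 72 h to 11.33, 11.32 and 10.87, against 10.52, 10.47 and 10.49, by 0.68 ± 0.13 (adjusted p = 0.000285). The high dose arrays lay above all controls at both times. The pair of pyrimidine carriers and SLC25A25 thus rose with high doses of both compounds, apart from SLC25A36 with Aa at 48 h.

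The promoters of SLC25A33, SLC25A36, SLC25A25 and SLC25A34 are shown because all of them rose with high dose Aa at 24 h and with high dose Ota at both times. SLC25A36 was not called with high dose Aa at 48 h. The RefSeq table of promoters (build GRCh38.p14) held 38 of the 45 carriers in 48 windows, and the 250 bases before each start were searched on both strands. The motif TGACGTCA, the palindromic cAMP response element bound by the CREB and ATF families, was in the windows of SLC25A33, SLC25A36 and SLC25A25 and in none of the other 35 carriers. It was in 1.65% of all 35116 windows. Percents here and below are per window, while carriers are counted per gene with a match in any of their windows, so the measures differ. The printed windows run 5′ to 3′ up to the last base before the start, with that motif in capitals. The motif began 49 bases before the start in SLC25A33, 117 in SLC25A36 and 200 in SLC25A25. For SLC25A25 the table holds 3 starts, and only the printed window held a match. The window of SLC25A34, which met the same rule and had the largest rise, held no such match. The motif was thus not in all of the carriers chosen by their rise.
SLC25A33, chr1:9539215-9539464, + strand: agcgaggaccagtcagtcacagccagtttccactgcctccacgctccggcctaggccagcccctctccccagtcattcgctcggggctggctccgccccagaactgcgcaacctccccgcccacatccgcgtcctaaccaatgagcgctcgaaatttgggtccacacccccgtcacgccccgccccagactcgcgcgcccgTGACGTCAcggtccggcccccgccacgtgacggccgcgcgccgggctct
SLC25A36, chr3:140941586-140941835, + strand: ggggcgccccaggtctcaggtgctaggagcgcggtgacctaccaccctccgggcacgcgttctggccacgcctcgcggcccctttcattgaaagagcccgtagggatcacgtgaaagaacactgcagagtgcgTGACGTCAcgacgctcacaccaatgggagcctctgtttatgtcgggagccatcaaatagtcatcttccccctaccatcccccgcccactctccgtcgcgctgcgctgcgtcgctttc
SLC25A25, chr9:128098257-128098506, + strand: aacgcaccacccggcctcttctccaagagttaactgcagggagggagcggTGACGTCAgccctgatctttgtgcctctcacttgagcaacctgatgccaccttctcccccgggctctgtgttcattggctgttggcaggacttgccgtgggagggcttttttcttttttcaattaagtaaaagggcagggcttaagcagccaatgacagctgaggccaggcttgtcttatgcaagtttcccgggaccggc
SLC25A34, chr1:15736008-15736257, + strand: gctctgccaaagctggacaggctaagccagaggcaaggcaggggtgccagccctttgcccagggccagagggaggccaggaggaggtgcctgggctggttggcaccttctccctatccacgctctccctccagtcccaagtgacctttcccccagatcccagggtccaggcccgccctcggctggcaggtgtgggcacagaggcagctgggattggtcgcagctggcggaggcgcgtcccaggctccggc

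The other 13 motifs searched overlap in part with this one and with each other. TGACG, the core of the response element, was in 21.2% of all windows and in 14 of 38 carriers. CACGTG was in 6.34% of windows and in 8 carriers, SLC25A33 and SLC25A36 among them, and CCGGAAG in 8.52% and in 11. GGGCGG was in 42.6% and in 28 carriers, and CCAAT in 32% and in 19. The NRF1 motif was in 5.07% and in SLC25A3, SLC25A11 and SLC25A31, TGANTCA in 6.57% and in SLC25A22 and SLC25A48, and TGATGNAA in 3.14% and in SLC25A11. TTGCATCA (0.772%), GCATGCGC (2.63%), TCAAGGTCA (0.319%), the direct repeat bound by PPAR and RXR (0.0171%) and the CArG box (0.0313%) were in no carrier window. A match describes the letters of the window and says nothing of binding in these cells. The motifs were searched after the changes were known, so the match is a description. SLC25A2, SLC25A16, SLC25A30, SLC25A32, SLC25A35, SLC25A37 and SLC25A41 had no entry.

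The carboxylate carriers fell or were not called. SLC25A11 exchanges matrix oxoglutarate for malate and forms part of the malate-aspartate shuttle, which passes reducing equivalents of NADH into the matrix. It read 8.13, 7.85 and 8.19 with high dose Aa at 24 h, against 9.91, 9.77 and 9.89 in controls, and 7.94, 7.51 and 7.49 at 48 h, against 9.75, 9.49 and 9.89. The groups did not overlap, and the changes were -1.80 ± 0.15 (adjusted p = 2.23e-07) and -2.06 ± 0.15 (adjusted p = 2.77e-08). Low dose Aa gave changes of -1.48 ± 0.15 and -1.60 ± 0.15 (adjusted p = 9.28e-06 and 2.46e-06).

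Under high dose Ota SLC25A11 read 7.03, 8.04 and 6.22 at 24 h, against 9.53, 9.55 and 9.34, a change of -2.37 ± 0.36 (adjusted p = 3.27e-05). At 72 h it read 4.20, 3.04 and 3.92, against 9.02, 8.99 and 8.85. That was a change of -5.24 ± 0.36 (adjusted p = 8.69e-09), or -4.89 with values under 4 set to 4, the largest change of any carrier in the dose comparisons. Low dose Ota lowered it at 24 h, to 7.56, 6.77 and 7.52, by 2.19 on the log2 scale (adjusted p = 0.00075). At 72 h the low dose arrays read 8.89, 8.86 and 8.82, 8.86 ± 0.03 on average, against 8.95 ± 0.09 (SD, n = 3 each), and were not called. A second probe set fell with all 4 high doses, by 1.98, 2.14, 3.01 and 5.39 on the log2 scale.

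The other carboxylate carriers were called lower with high dose Ota at 72 h. SLC25A10, which exchanges dicarboxylates for phosphate, read 3.21, 3.97 and 4.07, against 5.66, 5.66 and 5.67, a change of -1.91 ± 0.30 (adjusted p = 3.76e-05; -1.64 floored at 4). The citrate carrier SLC25A1, which exports citrate for lipid synthesis, was 8.45 ± 0.05, against 9.46 ± 0.05 (SD, n = 3 each; adjusted p = 0.000815). Low dose Ota at 24 h lowered SLC25A10 to 5.11, 4.91 and 5.20, against 6.41, 6.24 and 5.67, by 1.03 on the log2 scale (adjusted p = 0.0283). That call was lost in 5 of the 6 fits that left out an array (adjusted p up to 0.12) and with equal array medians (0.0722). SLC25A21, the oxodicarboxylate carrier, was not measured above 4.

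Of the 11 amino acid and glutathione carriers, 9 were tested. High dose Aa called 2 higher and 1 lower at 24 h (SLC25A15 and SLC25A40 against SLC25A13), and 1 higher and 2 lower at 48 h (SLC25A15 against SLC25A12 and SLC25A13). High dose Ota called 1 higher and 5 lower at 24 h, and 1 higher and 4 lower at 72 h. Of all tested genes 21.6% were higher and 42.4% lower with high dose Ota at 24 h, and 26.3% and 37% at 72 h, so the counts of lower carriers lie near those shares. With equal medians those splits were 3 and 5 at 24 h and 2 and 3 at 72 h. The rise of SLC25A40 with high dose Aa at 24 h was 0.38 ± 0.14 (adjusted p = 0.0325) and was lost in 4 of 6 fits without an array (up to 0.139 without high dose replicate 2). SLC25A2 and SLC25A18, paralogues of the ornithine and glutamate carriers, were not measured above 4. SLC25A22, which carries glutamate, was not called at any dose as deposited. Equal medians called it higher with high dose Ota, by 0.57 at 24 h (adjusted p = 0.003) and 0.63 at 72 h (adjusted p = 0.00183), and the replicate block called it lower with high dose Aa at 24 h, by 0.30 (adjusted p = 0.0472).

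SLC25A15 passes ornithine into the matrix for the urea cycle and for polyamine and proline metabolism. It rose with high dose Aa to 7.98, 7.97 and 8.09 at 24 h, against 6.56, 6.67 and 6.88, and to 8.06, 7.92 and 7.99 at 48 h, against 6.04, 6.29 and 6.08. The changes were 1.31 ± 0.16 (adjusted p = 1.18e-05) and 1.85 ± 0.16 (adjusted p = 1.85e-07). High dose Ota at 24 h gave 4.02, 3.30 and 3.27, against 6.37, 6.19 and 6.04, a change of -2.67 ± 0.36 (adjusted p = 1.04e-05; -2.19 floored at 4). SLC25A15 thus lay above all its controls with high dose Aa and below all of them with high dose Ota at 24 h. At 72 h the Ota controls were themselves low and uneven, at 5.62, 4.15 and 4.12, and the high dose arrays, at 4.12, 4.13 and 5.05, overlapped them and were not called. Low dose Ota at 72 h read 6.16, 5.87 and 5.27, a rise of 1.13 ± 0.36 (adjusted p = 0.0433) that 4 of 6 fits without an array did not call (adjusted p up to 0.188).

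The aspartate-glutamate carriers complete the malate-aspartate shuttle. SLC25A12 fell with high dose Aa at 48 h to 6.20, 6.14 and 6.00, against 8.38, 8.28 and 7.89, by 2.08 on the log2 scale (SE 0.20, adjusted p = 4.47e-07). Low dose Aa at 48 h lowered it by 1.33 (SE 0.20, adjusted p = 0.000151). High dose Ota at 24 h gave 5.49, 3.78 and 5.30, against 8.19, 8.15 and 8.46, a change of -3.41 ± 0.31 (adjusted p = 1.49e-07; -3.34 floored at 4). At 72 h the difference was smaller, at 7.15 ± 0.11, against 7.89 ± 0.17 (SD, n = 3 each; adjusted p = 0.0495), and each fit without an array and both scalings ended that call (adjusted p up to 0.193).

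SLC25A13, known as citrin, moved down with Aa and up with Ota. High dose Aa gave 9.75, 9.91 and 9.74 at 24 h, against 10.93, 10.63 and 10.87, and 10.03, 9.62 and 9.25 at 48 h, against 10.66, 10.78 and 10.67. The changes were -1.01 ± 0.16 (adjusted p = 8.16e-05) and -1.07 ± 0.16 (adjusted p = 2.62e-05). High dose Ota at 72 h gave 11.68, 11.48 and 11.43, against 10.38, 10.47 and 10.44, a rise of 1.10 ± 0.19 (adjusted p = 0.000108). At 24 h the gene was not called with high dose Ota as deposited, and was with equal medians (1.05, adjusted p = 9.31e-06). No treated array overlapped its controls in the groups with values given.

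SLC25A40 and its paralogue SLC25A39 are carriers linked to glutathione import into the matrix. SLC25A40, with high dose Ota at 24 h, read 6.82, 7.24 and 7.51, against 10.72, 10.67 and 10.72, a fall of 3.51 on the log2 scale (SE 0.17, adjusted p = 2.09e-10) and 11.4-fold. At 72 h it read 8.68, 8.98 and 9.14, against 9.97, 10.37 and 10.19, a fall of 1.24 (SE 0.17, adjusted p = 1.52e-05). SLC25A39 rose at 24 h to 9.89, 10.27 and 9.81, against 9.23, 9.16 and 8.92, by 0.88 ± 0.25 (adjusted p = 0.00628). At 72 h it fell to 6.93, 7.98 and 6.73, against 8.50, 8.13 and 8.67, by 1.22 (SE 0.25, adjusted p = 0.000545). The paralogues thus moved apart at 24 h and together at 72 h.

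Basic and branched-chain amino acid carriers were also lower with high dose Ota. SLC25A29, a carrier of arginine and lysine, read 5.13, 5.46 and 5.91 at 24 h, against 7.76, 7.56 and 7.74, and 6.81, 6.16 and 6.45 at 72 h, against 7.76, 7.75 and 7.76. The changes were -2.18 ± 0.19 (adjusted p = 6.94e-08) and -1.28 ± 0.19 (adjusted p = 2.09e-05). SLC25A44, which takes up branched-chain amino acids, fell at 24 h to 9.26, 8.71 and 9.78, against 10.73, 10.61 and 10.97, by 1.52 (SE 0.20, adjusted p = 8.37e-06). None of these treated arrays overlapped the controls. The glycine carrier SLC25A38, needed for heme synthesis, was not called at any dose.

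**Figure D5:**
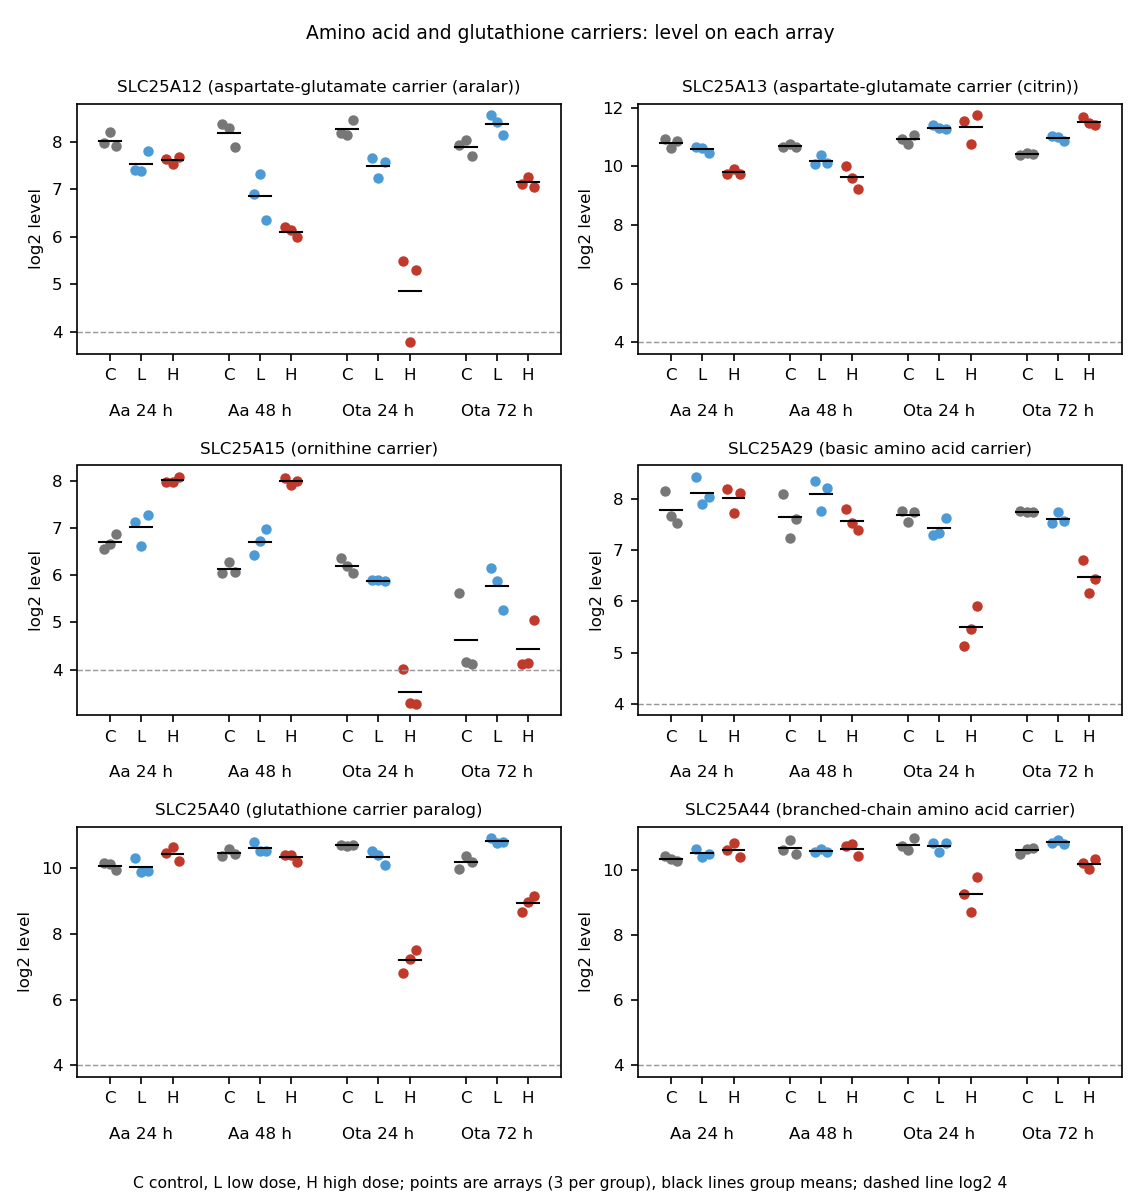
Log2 level on each of 36 arrays for 6 amino acid and glutathione carriers, with groups, points, lines and axes as in the panels of SLC25A34. With high dose Ota at 24 h, SLC25A40 lies between 6.82 and 7.51, against 10.67 to 10.72 in controls, while high dose Aa leaves it near its controls, and SLC25A15 is above its controls with high dose Aa and below them with high dose Ota at 24 h.

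SLC25A20, the only carrier of acylcarnitines, passes fatty acids to beta-oxidation in the matrix. It lay close to the line of 4 in all control groups. Under high dose Ota it read 5.71, 6.98 and 5.39 at 72 h, against 4.33, 4.55 and 4.34, a rise of 1.62 ± 0.34 (adjusted p = 0.000553). At 24 h it read 5.69, 4.73 and 4.96, against 4.65, 4.29 and 4.05, a rise of 0.80 ± 0.34 (adjusted p = 0.0474). That earlier call was lost with the replicate block (adjusted p = 0.0506) and in 4 of 6 fits without an array (up to 0.215 without high dose replicate 1). With high dose Aa at 48 h the arrays spread over 2.72, 3.39 and 4.74, against 4.21, 4.56 and 4.28, and the gene was not called.

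All 6 cofactor carriers with a probe set were tested. SLC25A26 brings S-adenosylmethionine into the matrix for methylation of mitochondrial nucleic acids and proteins. High dose Aa gave 6.57, 6.57 and 6.68 at 24 h, against 8.0, 8.15 and 8.23, and 6.03, 5.93 and 5.27 at 48 h, against 8.22, 8.33 and 8.24. The changes were -1.52 ± 0.21 (adjusted p = 3.04e-05) and -2.52 ± 0.21 (adjusted p = 1.11e-07), the change at 48 h being the largest fall of any carrier with Aa at 48 h. Low dose Aa lowered it by 0.72 at 24 h and by 1.28 at 48 h (adjusted p = 0.022 and 0.000292), so levels stepped down from control to low to high dose at both times. The low dose call at 24 h was lost in 4 of 6 fits without an array (adjusted p up to 0.0758).

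SLC25A32, which carries folate and flavin adenine dinucleotide, rose with high dose Ota at 72 h to 11.35, 11.27 and 11.43, against 9.69, 9.42 and 9.80, by 1.72 ± 0.22 (adjusted p = 4.58e-06). It was not called at any other dose as deposited. With equal medians it was also higher with high dose Ota at 24 h, by 1.03 (adjusted p = 8.61e-05), and with the replicate block lower with high dose Aa at 24 h, by 0.27 (adjusted p = 0.0178). SLC25A16, a carrier linked to coenzyme A, fell with high dose Ota at 72 h to 8.32, 8.71 and 7.62, against 10.36, 10.51 and 10.17, by 2.13 (SE 0.22, adjusted p = 5.76e-07). A second probe set of SLC25A16 fell with it, with a change of -2.50, and another, of the kind that can bind other transcripts, rose by 0.91. With Aa at 24 h the representative set rose by 0.53 ± 0.11 at high dose and 0.84 ± 0.11 at low dose (adjusted p = 0.000864 and 7.55e-05). The second set fell by 0.81 at that high dose, so SLC25A16 has no settled direction with Aa.

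SLC25A51 imports NAD into the matrix. With high dose Ota at 24 h it read 2.91, 3.76 and 3.72, against 5.15, 5.30 and 5.50, at least 2.49-fold lower (adjusted p = 1.58e-05), while another probe set rose by 0.85. Low dose Ota at 24 h lowered it by 0.86 (adjusted p = 0.0382), a call lost in 5 of 6 fits without an array and under both scalings. With high dose Aa at 48 h it rose by 0.68 ± 0.20, to 5.86 ± 0.23, against 5.18 ± 0.45 (SD, n = 3 each; adjusted p = 0.00678), and the arrays overlapped. The coenzyme A carrier SLC25A42 rose with high dose Ota at 24 h, by 0.85 ± 0.20 (adjusted p = 0.00178), and was not called with the mean of its probe sets. The peroxisomal carrier SLC25A17 was 7.86 ± 0.03 with high dose Aa at 48 h, against 8.34 ± 0.11.

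The 2 mitoferrins import iron for heme and iron-sulfur cluster synthesis. SLC25A28, the form of most tissues, read 8.60, 8.28 and 8.71 with high dose Aa at 24 h, against 7.84, 7.68 and 7.73, and 8.65, 8.75 and 9.06 at 48 h, against 7.69, 7.32 and 7.72. The changes were 0.78 ± 0.16 (adjusted p = 0.000775) and 1.24 ± 0.16 (adjusted p = 6.61e-06), with no overlap. It rose with high dose Ota at 72 h to 7.84, 8.15 and 7.72, against 6.96, 7.07 and 7.11, by 0.86 ± 0.18 (adjusted p = 0.000518). At 24 h it was 7.34 ± 0.44 with high dose Ota, against 7.59 ± 0.11 (SD, n = 3 each), and not called. Its other probe set fell there by 0.98 (adjusted p = 0.0171), while equal medians turned the first to 0.39.

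Low dose Aa at 48 h raised SLC25A28 by 0.44 ± 0.16 (adjusted p = 0.0429), which was lost in 4 of 6 fits without an array (up to 0.187 without control replicate 2). SLC25A37, the form known from red cell precursors, was 9.32 ± 0.40 with high dose Aa at 48 h, against 9.91 ± 0.22 (SD, n = 3 each; adjusted p = 0.0417), and 4 of its 7 other tested sets fell too. That call was lost without high dose replicate 3 (adjusted p = 0.218), control replicate 2 (0.139) or control replicate 1 (0.0806) and under quantile normalization (0.0556). The gene was not called at any other dose as deposited, and equal medians called it higher with high dose Ota at 72 h, by 0.37 (adjusted p = 0.0259), and with low dose Ota at 24 h.

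Of the carriers related to uncoupling proteins, SLC25A27 was not measured above 4. SLC25A30, first described in kidney, fell with high dose Aa at 48 h to 8.98, 8.86 and 9.24, against 10.26, 10.28 and 9.81, by 1.09 (SE 0.19, adjusted p = 0.000109). It rose with low dose Ota at 72 h to 10.59, 10.40 and 10.71, against 9.55, 9.44 and 9.49, by 1.07 ± 0.22 (adjusted p = 0.00323). With the mean of its probe sets, SLC25A30 was called with neither dose of Ota at 72 h. High dose Ota lay on the other side of control, at 8.84 ± 0.25 at 72 h, against 9.49 ± 0.06 (SD, n = 3 each; adjusted p = 0.0171), a call lost with equal medians (0.141) and without high dose replicate 2 (0.0781). SLC25A14 rose with high dose Aa, by 0.56 ± 0.17 at 24 h and 0.44 ± 0.17 at 48 h (adjusted p = 0.0113 and 0.0309), and fits without single arrays ended both calls (up to 0.0695 and 0.144). High dose Ota left it lower at 24 h, by 1.08 (SE 0.16, adjusted p = 1.94e-05), and higher at 72 h, by 0.42 ± 0.16 (adjusted p = 0.0277), the later call being lost in 4 of 6 fits without an array (up to 0.119 without control replicate 3).

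Among the other carriers without a firm cargo, SLC25A35 fell. It read 2.66, 2.81 and 2.60 with high dose Aa at 24 h, against 5.29, 4.98 and 5.06, at least 2.16-fold lower (adjusted p = 5.7e-05). At 48 h it read 2.91, 2.38 and 2.41, against 4.54, 3.60 and 5.74, at least 1.54-fold lower (adjusted p = 0.000143). Low dose Aa gave the same bounds, at least 2.16-fold at 24 h and at least 1.54-fold at 48 h (adjusted p = 0.000311 and 0.000842). Low dose Ota at 24 h read 2.40, 2.32 and 2.41, against 4.41, 5.21 and 4.66, at least 1.69-fold lower (adjusted p = 8.5e-05). High dose Ota at 24 h, at 3.46, 4.05 and 2.40, was called too (adjusted p = 0.000648). With the mean of its probe sets, SLC25A35 was called with neither dose of Ota at 24 h. The carrier was at or under 4 in all Ota arrays at 72 h, controls included, so no fold is given there. SLC25A35 exceeded 4 on 5 Aa arrays, all of them controls, so with Aa it was tested only through groups where it was high. With Ota it exceeded 4 on 4 arrays, the 24 h controls and high dose replicate 2 of that time. Its adjusted p-values rest mostly on treated values under the line, so the levels and bounds describe the fall.

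SLC25A45 rose from below the line with Aa at 48 h. It read 5.94, 5.10 and 4.88 with the high dose and 5.70, 5.39 and 3.48 with the low dose, against 3.23, 3.27 and 3.32. The rises were at least 2.47-fold (adjusted p = 0.00199) and at least 1.81-fold (adjusted p = 0.02), and leaving out low dose replicate 1 or 2 or control replicate 1 ended the low dose call (adjusted p up to 0.103). SLC25A45 exceeded 4 on 7 Aa and 3 Ota arrays, and most of the Aa arrays were these treated ones. With Aa it was thus tested through groups where it was high. Its adjusted p-values rest on control values under the line, so the levels and bounds describe the rise. Low dose Ota at 72 h raised SLC25A45 at least 1.15-fold (adjusted p = 0.0107), and that call was lost without low dose replicate 1 (0.0618) or 3 (0.0599), with values floored at 4 (0.0606) and with all 36 arrays in the fit (0.126). SLC25A53 was called in the same group at 3.94 ± 0.56, against 3.09 ± 0.00 (SD, n = 3 each), with both means under 4 and hence no fold. The call was lost in 5 of 6 fits without an array (up to 0.148 without low dose replicate 1), with no filter on low values (0.0609) and with the floor at 4 (0.32). SLC25A43 fell with high dose Ota at 72 h to 7.35, 7.06 and 7.13, against 8.92, 8.99 and 9.00, by 1.79 (SE 0.23, adjusted p = 5.68e-06). SLC25A46, an outer membrane protein with no known carrier role, was 0.30 lower with high dose and 0.42 lower with low dose Aa at 24 h on its representative set, and its second set rose by 0.50 at that high dose. Without single arrays both calls were lost (up to 0.216 without high dose replicate 1 and 0.09 without low dose replicate 1). SLC25A47 and SLC25A48 were not measured above 4.

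The 5 transcripts without a carrier product were SLC25A5-AS1, SLC25A21-AS1, SLC25A25-AS1, SLC25A48-AS1 and the pseudogene SLC25A3P1. Only SLC25A25-AS1 was tested, with Aa. It averaged 4.02 ± 0.46 with high dose Aa at 24 h, against 2.43 ± 0.01, and 3.96 ± 0.37 at 48 h, against 2.42 ± 0.00 (SD, n = 3 each). The level at 24 h was at least 1.01-fold higher (adjusted p = 4.15e-05). That p-value rests on control values under the line. The transcript exceeded 4 on 4 Aa arrays, all of high dose, and was tested only through them. It stayed at 2.49 or below on average in every Ota group, where SLC25A25 itself rose at high dose.

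Proteins that serve the same membrane were described from lists, whose counts stand beside the shares of all tested genes. Those were 27.4% higher and 24% lower with high dose Aa at 24 h, 30.9% and 35.1% at 48 h, 21.6% and 42.4% with high dose Ota at 24 h, and 26.3% and 37% at 72 h. With equal medians, 2605 of 10972 genes were higher and 3020 lower with high dose Aa at 24 h. For high dose Ota, 5193 of 11029 were higher and 2943 lower at 24 h, and 4370 and 3083 at 72 h. Of 13 genes for the import of carrier proteins, 9 were called lower with high dose Aa at 24 h, 1 higher and 8 lower at 48 h, 1 higher and 9 lower with high dose Ota at 24 h, and 2 higher and 8 lower at 72 h. Their median changes were -0.44, -0.58, -0.49 and -1.09, beside 0.03, -0.04, -0.26 and -0.12 over all tested genes. With equal medians the count for Ota at 24 h was 1 higher and 6 lower, with a median of 0.15. TIMM10B, a small chaperone of the space between the membranes, fell by 1.66 with high dose Aa at 24 h, at least 7.58-fold with high dose Ota at 24 h, and by 2.93 at 72 h (adjusted p = 2.86e-06, 1.93e-09 and 2.19e-07). TIMM22, the pore that inserts carriers, was at least 11.6-fold lower with high dose Ota at 24 h (adjusted p = 2.16e-07). TIMM9, a partner chaperone, fell by 1.86 with high dose Aa at 48 h (adjusted p = 3.16e-08). Low dose Ota at 24 h called 7 of the 13 lower, beside 10% of all tested genes.

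Other inner membrane transporters were called in both directions. Of 12 tested, 3 were called higher and 6 lower with high dose Aa at 24 h (1 and 7 with equal medians), 1 and 8 at 48 h, 2 and 6 with high dose Ota at 24 h (5 and 4 with equal medians), and 3 and 8 at 72 h. For high dose Ota at 24 h, 6 lower of 12 is near the 42.4% of all tested genes. MCU, the calcium uniporter, fell by 4.45 with high dose Ota at 24 h (SE 0.23, adjusted p = 3.25e-10). The sideroflexin SFXN2 fell by 1.98 and 1.93 with high dose Aa at 24 h and 48 h and by 4.60 with high dose Ota at 72 h (adjusted p = 7.09e-06, 4.13e-06 and 2.11e-12). SFXN4, linked to iron-sulfur clusters, fell by 1.87, 2.02, 2.12 and 2.68 with the 4 high doses. SLC25 proteins without the symbol, 4 tested, were called 1 higher and 2 lower with high dose Aa at 24 h, and 1 lower at 48 h. High dose Ota called 1 higher at 24 h and 1 lower at 72 h. Among them UCP2 fell by 1.29 and 2.44 with high dose Aa and by 4.94 with high dose Ota at 72 h (adjusted p = 0.00284, 6.61e-06 and 9.7e-10). UCP3 rose by 1.34 with high dose Aa at 24 h and by 0.73 with high dose Ota at 24 h (adjusted p = 0.000194 and 0.00296).

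The enzymes that use the cargo were mixed. Of 25 tested, 6 were higher and 4 lower with high dose Aa at 24 h (5 and 6 with equal medians), 11 and 8 at 48 h, 7 and 5 with high dose Ota at 24 h (18 and 2 with equal medians), and 7 and 13 at 72 h (10 and 10). As deposited, the 10 called with high dose Aa and the 12 called with high dose Ota at 24 h lie below the 51.3% and 64% of all tested genes called. With equal medians this no longer held for Ota, where 5193 of 11029 genes were higher and 2943 lower. NFS1, the sulfur donor of iron-sulfur clusters, rose by 1.17 ± 0.17 with high dose Aa at 24 h (adjusted p = 5.25e-05). GPD1L, a glycerol phosphate dehydrogenase, fell by 1.84 with high dose Aa at 48 h (adjusted p = 5.69e-05). ARG2, which makes ornithine in the matrix, fell by 4.13 with high dose Ota at 72 h (adjusted p = 1.47e-09). ALDH1L2, a folate enzyme of the matrix, fell by 5.09 there (adjusted p = 8.77e-07), with treated arrays partly at or under 4. Of the 3 outer membrane channels, 1 was called higher with high dose Aa at each time. High dose Ota called 2 higher and 1 lower at 24 h, and 2 higher at 72 h. VDAC1 and VDAC2 rose with high dose Ota at 72 h, by 1.22 and 1.03 (adjusted p = 3.81e-07 and 7.76e-07). Regulators of mitochondrial gene expression, 5 tested, were called 1 higher and 1 lower with high dose Aa at 24 h, and 1 and 2 at 48 h. High dose Ota called 3 higher and 1 lower at 24 h, and 3 and 2 at 72 h, with median changes of 0.47 and 0.61. Among them PPARGC1A, a coactivator of mitochondrial gene expression, fell with all 4 high doses, by 2.05, 2.82, 4.32 and 1.58 (adjusted p = 0.000323, 9.55e-06, 2.62e-10 and 1.31e-05).

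The step from low to high dose was tested directly. High dose Aa differed from low dose in 7 carriers at 24 h, 4 higher and 3 lower (27.1% of all tested genes, 17.1% higher and 9.95% lower), and in 12 at 48 h, 5 higher and 7 lower (46.5%, 20.9% higher and 25.6% lower). Equal medians turned the split at 24 h to 2 and 5, beside 1373 higher and 1618 lower of all 10972 tested genes. Without low dose replicate 3 only 4 carriers were called there. The replicate block gave 9 carriers at 24 h, 25% of those tested beside 41.5% of all genes, and 14 at 48 h, 38.9% beside 58.7%. SLC25A34 and SLC25A15 were higher in high dose Aa at both times, the second by 0.99 ± 0.16 and 1.28 ± 0.16, and SLC25A26 was lower at both, by 0.80 and 1.23 (adjusted p = 0.011 and 0.000268), the earlier call being lost without low dose replicate 2 (0.0561). With Ota, 22 carriers differed between doses at 24 h, 9 higher and 13 lower (58.1%, 19.4% higher and 38.7% lower), and 30 at 72 h, 10 higher and 20 lower (58.4%, 21.7% higher and 36.7% lower). Equal medians gave 18 and 8 at 24 h and 14 and 15 at 72 h. Of all 11029 tested genes, 4743 were then higher and 2716 lower at 24 h, and 4088 and 2836 at 72 h. At 72 h the carriers called were 81.1% of the 37 tested. SLC25A11 was the extreme, with a change of -5.14 ± 0.36 (adjusted p = 2.07e-08).

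To see which responses changed with time, the high dose effects at the later and earlier times were set against each other as an interaction. With Aa, 7 carriers differed, 1 higher and 6 lower (20.7% of all tested genes, 7.14% higher and 13.6% lower), 11 did with the replicate block, and 3 did without high dose replicate 2 of 24 h or control replicate 2 of 48 h. The effect on SLC25A25 was larger at 48 h, by 1.86 ± 0.26 (adjusted p = 0.000386), and that on SLC25A12 more negative, by 1.67 (SE 0.29, adjusted p = 0.00164). With Ota, 19 carriers differed, 11 higher and 8 lower at 72 h than at 24 h (53.8% of all tested genes, 33% higher and 20.8% lower). Equal medians gave 8 and 12, beside 2768 higher and 3249 lower of all 11029 tested genes. SLC25A12, SLC25A15 and SLC25A40, low at 24 h, stood nearer their controls at 72 h, where the controls of SLC25A15 were themselves lower by 1.57. The differences of these effects were 2.67 ± 0.44, 2.47 ± 0.51 and 2.27 ± 0.25 (adjusted p = 0.000138, 0.000901 and 3.06e-06). SLC25A11, SLC25A23 and SLC25A39 moved the other way, with differences of -2.86 ± 0.51, -2.73 ± 0.33 and -2.11 ± 0.36 (adjusted p = 0.000263, 7.09e-06 and 0.000169). The effect on SLC25A5 was lower by 1.15 at 72 h (SE 0.14, adjusted p = 8.48e-06).

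The controls themselves differed between times. Later Aa controls differed from earlier ones in 1 carrier (1.29% of all tested genes, 0.565% higher and 0.729% lower), SLC25A16, higher by 0.84 ± 0.11 (adjusted p = 0.0034). They differed in 8 with the replicate block, beside 16.3% of all tested genes, and in 4 without control replicate 3 of 48 h. Later Ota controls differed in 9 carriers, 4 higher and 5 lower (29.8%, 14% higher and 15.8% lower), and in 5 without control replicate 1 of 24 h. SLC25A15 was lower at 72 h by 1.57 (SE 0.36, adjusted p = 0.00411), SLC25A35 at least 1.69-fold lower, and SLC25A38 higher by 1.04 ± 0.25 (adjusted p = 0.00501). Each time therefore keeps its own controls, and a difference between times in the text is one of effects.

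The compounds share 24 h as a time, though not a matched dose, and their high dose effects there were compared over all 36 arrays. The effects differed in 20 carriers, 7 higher and 13 lower with Ota than with Aa (59.4% of all tested genes, 18.7% higher and 40.7% lower). Equal medians gave 17 and 9, a split not set against all genes here. The balance of higher and lower carriers thus turned with the scaling, and no direction is drawn from either split. The largest differences lay in the amino acid and glutathione carriers. They were -3.98 ± 0.41 for SLC25A15 (adjusted p = 3.96e-09), -3.89 ± 0.22 for SLC25A40 (4.87e-14), -3.01 ± 0.38 for SLC25A12 (1.49e-07) and -2.42 ± 0.31 for SLC25A29 (1.39e-07). SLC25A23 and SLC25A13 were higher with Ota, by 1.60 ± 0.35 (adjusted p = 0.000254) and 1.43 ± 0.25 (1.72e-05). SLC25A28 was lower with Ota by 1.03 (SE 0.24, adjusted p = 0.00054), a call that equal medians ended (0.237). For SLC25A25 the difference was 0.36 ± 0.35 and was not called (adjusted p = 0.389).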

How the data were processed

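Gene expression was measured in 36 cultures of HK-2 cells on Affymetrix U133 Plus 2.0 arrays. The authors deposited log2 values made with GCRMA, per the submitters' processing notes. Its version is not given in the sources used here, nor is whether the arrays went through it jointly. Background estimation in that method pulls dim probe sets to a common low level, which is why values at or under 4 are treated as unordered in the text. The fits used the deposited values, with a floor at 4 among the alternatives. Of 54675 probe sets, 62 control sets were left out, 41091 had 1 gene symbol, 1801 had several and 11721 had none. Symbols were checked by Entrez identifier against a RefSeq table (GRCh38.p14), which matched 41037 sets and changed 0 symbols. Each gene was read from its probe set with the highest mean over all arrays.

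Group means were fitted in limma 3.58.1 (R 4.3.3) on the 18 arrays of a compound, or on all 36 to compare compounds, over genes above 4 on at least 3 arrays (10972 for Aa, 11029 for Ota, 11405 for both). P-values were adjusted by Benjamini-Hochberg over all genes tested in each of 17 comparisons, and the script was tested on simulated data. Bounds written "at least" use means with lower values set to 4. Errors of changes are SE, and those of means SD. The number of arrays limits the precision. The labels call the replicates biological. Their numbers paired the Aa cultures, since every correlation of deviations between same-numbered arrays exceeded 0.1 (lowest 0.189), while for Ota all 3 did in 3 of 15 pairs of groups, both doses against control at 24 h among them. Neither scan dates nor batches were used. Alternatives were no filter, quantile normalization, equal array medians, a floor at 4, the mean of a gene's probe sets, all arrays in the fit, the replicate block and leaving out each array.

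The carriers and lists were chosen with earlier results of these data known. Named were, per high dose comparison, the 8 largest called rises and falls, 4 each way in the others, SLC25A3, SLC25A4, SLC25A5, SLC25A20, SLC25A28 and SLC25A37 throughout, every carrier at least once, and the 2 most changed genes of each partner list. Members named beyond this, to account for a count or for values in other comparisons, were chosen after their values were seen.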

Additional observations from a re-analysis of the deposited data

Results flagged for a closer look

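Each of these carriers had a high dose effect that differed between times or compounds by the limma interaction test (adjusted p under 0.05). The 3 replicates per group are too few for a test of single outlying arrays.

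With Aa, the effect at 48 h minus that at 24 h was 1.86 for SLC25A25, -1.67 for SLC25A12, -1.0 for SLC25A26, -0.97 for SLC25A30 and -0.89 for SLC25A16 (log2, adjusted p = 0.000386, 0.00164, 0.0292, 0.0186 and 0.00177). The call of SLC25A26 was lost with no filter and in several fits without an array. That of SLC25A30 was lost without high dose replicate 2 or control replicate 3 of 24 h, or control replicate 2 of 48 h. With the mean of a gene's probe sets, SLC25A30 and SLC25A16 were not called. With Ota, the effect at 72 h minus that at 24 h was 2.67 for SLC25A12, 2.47 for SLC25A15, 2.27 for SLC25A40 and 1.64 for SLC25A51. It was -2.86 for SLC25A11, -2.73 for SLC25A23, -2.11 for SLC25A39 and -1.28 for SLC25A42. With the mean of a gene's probe sets, SLC25A51 and SLC25A42 were not called. With values floored at 4, the differences of SLC25A12, SLC25A15, SLC25A51 and SLC25A11 were 2.59, 2.00, 1.10 and -2.51.

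At 24 h, the high dose Ota effect minus the high dose Aa effect was 1.60 for SLC25A23, 1.43 for SLC25A13, 0.97 for SLC25A39 and 0.77 for SLC25A42. It was -3.98 for SLC25A15, -3.89 for SLC25A40, -3.01 for SLC25A12 and -2.42 for SLC25A29. The difference of SLC25A39 was lost in 6 fits without an array (adjusted p up to 0.152). With equal array medians, these 8 differences kept their sign and their call. Doses were not matched between the compounds.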

How the results depend on the processing

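Of 8663 alternative values of 621 gene results, 8033 kept their side of the threshold, 359 lost the call, 240 gained it and 31 reversed. A change of direction was counted as reversed only where the main or the alternative value was called. Values called in neither fit are among the 8033 whatever their direction. Of 238 alternative counts of called carriers, 215 stayed within 1.5 times. The cause of the changes was not tested.

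The replicate block, which pairs the Aa cultures, gave 24 carriers for high dose Aa at 24 h, 15 for low dose at 24 h, 20 for low dose at 48 h, 11 for the time effect and 8 between the Aa controls. The shares of all tested genes were 63.2%, 39.4%, 53.2%, 39.2% and 16.3% in that order. It ended the call of SLC25A20 with high dose Ota at 24 h. All 36 arrays in the fit gave 8 for low dose Ota at 24 h, beside 636 higher and 1467 lower of all 11405 tested genes. The Aa controls differed in 2 carriers under quantile normalization, equal array medians and the floor, counts not set against all genes here.

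Leaving out arrays gave counts of 13 to 17, 6 to 10, 16 to 19 and 8 to 13 for high and low dose Aa at 24 h and then 48 h. For high and low dose Ota the ranges were 21 to 27 and 2 to 5 at 24 h, and 24 to 26 and 1 to 4 at 72 h. High against low dose gave 4 to 8 and 10 to 12 for Aa, and 20 to 24 and 26 to 29 for Ota. Time effects gave 3 to 8 for Aa and 16 to 20 for Ota, controls 1 to 4 and 5 to 8, and Ota against Aa 15 to 20.

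Averaging a gene's probe sets reversed SLC25A4 with high dose Aa at 24 h (0.39) and 48 h (0.51), low dose Aa at 24 h (0.17) and 48 h (0.20) and high dose Ota at 72 h (0.42). It reversed SLC25A3 with low dose Aa at 24 h (0.87), high and low dose Ota at 24 h (2.45 and 1.66) and 72 h (1.44 and 0.73), high against low dose Aa at 48 h (0.70) and Ota at 72 h (0.71), and Ota against Aa (0.80). It also reversed SLC25A46 with high dose Aa at 24 h (0.10) and in the Aa time effect (-0.40), SLC25A53 with high dose Ota at 24 h (1.15), SLC25A51 between Ota doses at 24 h (0.10) and SLC25A30 between compounds (0.11).

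Equal medians reversed, with high dose Ota at 24 h, SLC25A3 (0.51), SLC25A5 (0.57), SLC25A22 (0.57), SLC25A28 (0.39), SLC25A45 (0.60) and SLC25A53 (0.54), SLC25A28 against low dose (0.50), and between compounds SLC25A3 (0.56), SLC25A24 (0.69), SLC25A30 (0.0407) and SLC25A33 (0.64). Quantile normalization reversed SLC25A22 with high dose Ota at 24 h (0.47) and SLC25A28 against low dose (0.38). Equal medians ended the falls of SLC25A10, SLC25A16, SLC25A26, SLC25A30 and SLC25A43 with high dose Ota at 24 h, and of SLC25A12, SLC25A26, SLC25A30 and SLC25A35 at 72 h.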
